A study of Homo sapiens with 24 samples.

Results

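The comparison followed bromouridine-labelled cytoplasmic RNA through the first 2 h of a chase in uninduced cells. Uninduced means U2OS cells, a human osteosarcoma line, from a double stable Tet-off line that carries a transgene for TOB2-S254D, a mutant of TOB2 with aspartate in place of a serine, and that was kept with doxycycline so that the transgene stayed off. Cells had been given bromouridine, a uridine analog that marks RNA made during a pulse; cytoplasmic RNA was extracted at each time of chase and the marked RNA was recovered with an antibody to bromouridine. The early chase change is the mean of log2(TPM + 1) over the 4 libraries at 1 and 2 h minus that over the 4 libraries at 0 and 0.5 h, with 2 libraries at each time. These 8 of the 24 libraries of the series are the members of the comparison. Of 25341 genes, the 13416 whose TPM averaged 1 or more across the whole series were tested. The 2 sides of the comparison are called the first side (0 and 0.5 h) and the second side (1 and 2 h), and a value written as a mean ± SD is over the 4 libraries of a side. The other uninduced libraries were taken at 4 and 6 h. Induced cells, taken at the same 6 times, were grown without doxycycline, which means that the arms differ in the drug as well as in the transgene. The labels name the line as stable but do not say whether it is 1 clone, and they do not say whether the replicates were separate cultures, so p-values measure only the spread between these libraries, which may be technical.

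After a pulse, the RNA marked at 0 h is the newest RNA of the cell, and it is rich in transcripts of genes that are strongly transcribed even if those transcripts are short-lived. During the chase an mRNA that is degraded fast becomes a smaller share of the marked RNA, and a stable mRNA becomes a larger one. Marked RNA can also leave the nucleus during the first hours, so an mRNA that is exported late gains share in the cytoplasm. Fast decay usually starts with removal of the poly(A) tail by the CCR4-NOT deadenylase, which AU-rich elements in the 3-prime end of an mRNA recruit through proteins such as ZFP36, and to which the BTG and TOB proteins also bind. TPM is an abundance per transcript length that adds up to the same total in every library. A loss shared by all RNAs therefore leaves no trace, loss and late arrival of marked RNA cannot be told apart, and "fell" and "rose" below refer to the share of a transcript among the marked RNA. The read depth is not known from TPM, so no counting error can be given.

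Over the first 2 h more genes rose than fell, but the falls were larger. At an adjusted p under 0.05 (limma, Benjamini-Hochberg over all genes tested), 1922 genes, or 14.3%, were higher at 1 and 2 h, and 392, or 2.92%, were lower, together 2314 or 17.2%. An unadjusted p under 0.05 was reached by 3928 genes (29.3%). Among the genes called, 13 (0.0969% of all tested) rose and 33 (0.246%) fell by at least 2-fold. The median change over all genes was 0.067 on the log2 scale, and the middle 50% of genes lay between -0.084 and 0.23. The 4 values at 1 and 2 h were all above the 4 at 0 and 0.5 h for 1740 genes (13% of those tested) and all below for 491 (3.66%). The balance of rises and falls depended on the scaling. Of the genes called, 83.1% rose with TPM as deposited, 70.1% with TPM rescaled without the noncoding RNAs RMRP, MIR6723 and RPPH1, 59.9% with median-of-ratios scaling and 58% with quantile normalization. Of the 392 genes that fell, 389 were also called lower with median-of-ratios scaling and 368 with quantile normalization, and of the 1922 that rose, 1318 and 1045 were also called higher. Over all 13416 genes, median-of-ratios scaling called 1371 higher and 917 lower, and quantile normalization 1201 and 870. Counts of list members under these scalings, given below, are to be read beside these.

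**Figure D1:**
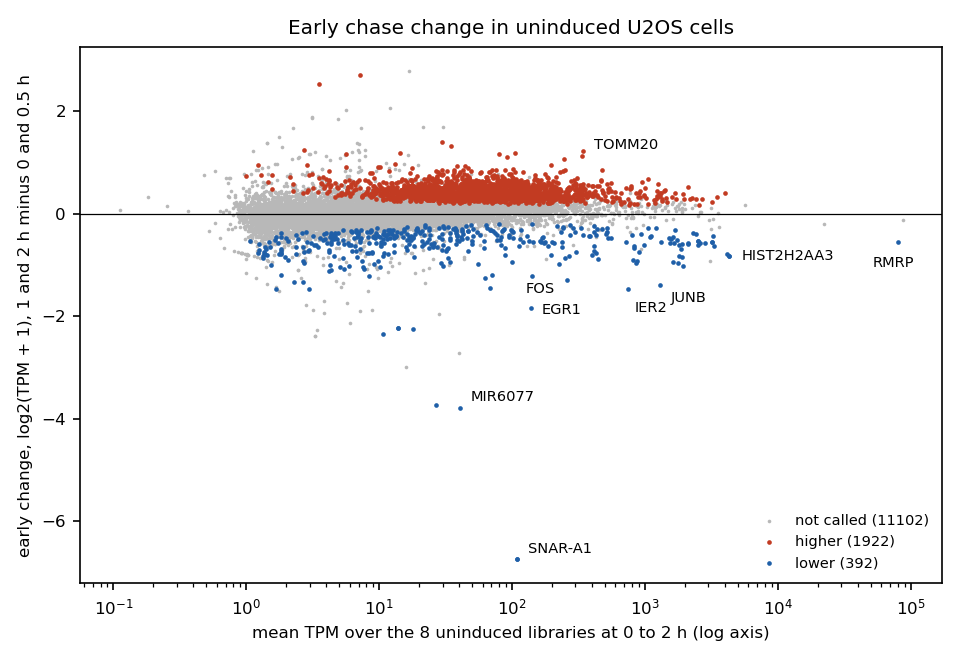
Early chase change of each of the 13416 genes tested (vertical axis, log2 of TPM + 1, mean of 1 and 2 h minus mean of 0 and 0.5 h) against its mean TPM over the 8 libraries (horizontal axis, log scale). Red points are the 1922 genes called higher and blue points the 392 called lower at an adjusted p under 0.05 (limma). Most rises lie under a log2 change of 1, while the falls reach further down, with SNAR-A1 and MIR6077 lowest among the labelled genes.

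More genes were called among abundant transcripts, whose error was smaller and whose median change was higher. Among 3118 genes under 5 TPM, 1.25% were higher and 2.5% lower, with a median change of -0.048 and a median SE of 0.181 on the log2 scale. Among 4399 genes at 5 to 20 TPM 5.46% were higher, and among 4435 at 20 to 100 TPM 23.9%, with median changes of 0.023 and 0.16. Among 1464 genes at 100 TPM and over, 39.7% were higher and 7.38% lower, with a median change of 0.19 and a median SE of 0.087. The lists below are set beside the shares of all genes, which mix these levels. No list was matched for level, so a larger share of rises can go with the level of its members. TOB2 itself, the gene that the transgene carries, was at 267 and 246 TPM at 0 h, 229 and 215 at 0.5 h, 246 and 203 at 1 h, and 261 and 235 at 2 h. Its values at the early and late times overlapped, and the change was -0.02 (95% interval -0.26 to 0.22, adjusted p = 0.938, limma).

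The 6 largest falls among protein-coding genes of at least 5 TPM (EGR1, IER2, JUNB, FOS, SERTAD1 and ZFP36) were immediate early genes, which growth signals and stress switch on within minutes without new protein synthesis. JUNB, a partner in the AP-1 transcription factor, was at 2198 and 2304 TPM at 0 h, 1444 and 1545 at 0.5 h, 1051 and 986 at 1 h, and 490.4 and 461 at 2 h. Each later pair of libraries was below each earlier pair, and the change was -1.40 (SE 0.0797, adjusted p = 5.95e-08, limma), the smallest p of all genes. EGR1, a growth-factor-induced zinc finger protein that binds GC-rich promoters, was at 215 and 317 TPM at 0 h, 184 and 127 at 0.5 h, 133 and 81.8 at 1 h, and 31.6 and 26.5 at 2 h. Its change of -1.84 (SE 0.182, adjusted p = 1.31e-05) was the largest among the protein-coding genes called, although 1 library at 1 h lay above 1 at 0.5 h. FOS, another part of AP-1, was at 248 and 354 TPM at 0 h, 548 and 306 at 0.5 h, 254 and 193 at 1 h, and 84.2 and 94.6 at 2 h. Its level at 0.5 h was not below that at 0 h, its replicates at 0.5 h lay far apart, and the sides overlapped. Its change of -1.30 carried an SE of 0.244 (adjusted p = 0.00141). JUN, the founding AP-1 subunit, was at 63.3 to 93.9 TPM at 0 and 0.5 h and 19.8 to 55.5 at 1 and 2 h, with a change of -0.99.

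Of the 24 measured members of the list of AP-1, EGR and other immediate early transcription factors, 9 fell (37.5%, against 2.92% of all genes), 1 rose and 14 did not pass the test. With quantile normalization 14 were lower. The median of the list was -0.30, against 0.067 for all genes. The list also holds MCL1, which did not pass, a short-lived survival protein of the BCL2 family, which was at 1373 to 1766 TPM at 0 and 0.5 h and 1261 to 1442 at 1 and 2 h (change -0.13, adjusted p = 0.343). The 1 member that rose was ETS2, an ETS-family transcription factor, at 199 to 274 TPM at 0 and 0.5 h and 320.4 to 411 at 1 and 2 h (change 0.59, adjusted p = 0.000848). Changes inside the list ran from -1.84 to 0.59 (full range), and the middle 90% of all genes lay between -0.38 and 0.49. These are unlike measures, so they do not compare the spreads.

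The promoters of 4 genes that fell are shown because immediate early genes are grouped by how they are switched on, and to set a histone promoter beside them. Each line gives the 140 bases before the RefSeq transcription start (build GRCh38.p14, 5′ to 3′ on the gene's strand). Capitals mark matches on either strand to TATAAA (the TATA box), to TGACGTCA (the cyclic AMP response element) or to the CArG box bound by serum response factor. JUNB lies at chr19:12791346-12791485 (+ strand), EGR1 at chr5:138465339-138465478 (+ strand), DUSP1 at chr5:172771196-172771335 (- strand) and HIST1H2BJ at chr6:27132796-27132935 (- strand).
JUNB: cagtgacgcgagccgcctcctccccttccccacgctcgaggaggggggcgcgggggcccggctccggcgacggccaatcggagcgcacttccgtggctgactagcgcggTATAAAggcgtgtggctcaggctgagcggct
EGR1: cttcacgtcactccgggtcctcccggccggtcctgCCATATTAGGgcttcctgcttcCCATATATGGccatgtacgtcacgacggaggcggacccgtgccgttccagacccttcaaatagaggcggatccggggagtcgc
DUSP1: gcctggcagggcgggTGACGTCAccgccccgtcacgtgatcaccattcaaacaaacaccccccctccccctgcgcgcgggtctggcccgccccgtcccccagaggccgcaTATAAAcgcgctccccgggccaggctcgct
HIST1H2BJ: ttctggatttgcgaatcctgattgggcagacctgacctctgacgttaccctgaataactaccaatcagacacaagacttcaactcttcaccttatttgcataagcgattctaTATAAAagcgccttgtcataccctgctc
JUNB had a TATAAA 31 to 26 bases before its start, DUSP1 one 30 to 25 bases before and HIST1H2BJ one 28 to 23 bases before. EGR1 had a pair of CArG boxes, 105 to 96 and 83 to 74 bases before its start, and DUSP1 had a TGACGTCA 125 to 118 bases before its start. Each printed promoter held a match, so these promoters do not stand for all genes that fell. In the longer window used below, IER2, IER5, IER5L, JUN, SERTAD1, ZFP36, SOCS3 and BTG2, which also fell, matched none of these motifs. In that window FOS and ZC3H12A, which fell too, had a TATAAA.

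Over windows of 250 bases before to 50 after the start, a TATAAA stood in 44 of the 268 promoters found for genes that fell (16.4%) and in 86 of 1580 found for genes that rose (5.44%). It stood in 552 of the 9670 promoters matched for tested protein-coding genes (5.71%) and in 11.5% of the 35116 promoters of the reference table. Without the replication-dependent histone genes the share among genes that fell was 6.67% (15 of 225). For TGACGTCA the shares were 5.6% of genes that fell, 3.35% of genes that rose and 3.42% of all matched, and 2.67% of genes that fell without the histone genes. CArG boxes stood in 1.49%, 1.33% and 1.02%, and the AP-1 motif TGACTCA in 3.36%, 2.78% and 3%. A CArG box can contain TATAAA, so those counts can overlap. A match describes letters in a window and shows no binding.

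Of the other immediate early regulators several fell. IER2, an immediate early nuclear protein, was at 1309 and 1323 TPM at 0 h, 985 and 712 at 0.5 h, 709 and 495 at 1 h, and 256 and 230.0 at 2 h. Every library at 1 and 2 h was below every one at 0 and 0.5 h, and the change was -1.47 (SE 0.129, adjusted p = 5.32e-06, limma). SERTAD1, which binds CDK4 and E2F complexes, went from 193 ± 39.2 to 87.6 ± 40.8 TPM (change -1.21), and SERTAD3, of the same family, from 288 ± 30.9 to 188 ± 54.5 TPM (-0.66). Of the 16 measured IER, SERTAD, CITED and related members 7 fell (43.8%, against 2.92% of all genes), 2 rose (12.5%, against 14.3%) and 7 did not pass, with a median of -0.20. With median-of-ratios scaling 1 rose and with quantile normalization none, while 7 fell under each. IER5L (change -0.98) and IER5 (-0.76) were among those that fell, each with overlap between the sides. The 2 that rose were GADD45A, a stress-induced growth arrest protein (change 0.42), and SERTAD2 (0.32), the latter in only 4 of the 8 fits that left out 1 library. SERTAD2 was not called under either scaling, and GADD45A was not called with quantile normalization.

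Among feedback inhibitors of signalling, DUSP1, a phosphatase that switches off MAP kinases, was at 2817 and 2763 TPM at 0 h, 2455 and 2135 at 0.5 h, 1965 and 1599 at 1 h, and 965 and 779 at 2 h. It was the most abundant of the signalling transcripts named here, its sides did not overlap, and it fell by 1.03 on the log2 scale (SE 0.132, adjusted p = 8.31e-05, limma). DUSP2, a nuclear phosphatase of the same family, went from 566 ± 54.2 to 327 ± 134 TPM (change -0.88). Of 17 MAP kinase and receptor kinase feedback inhibitors 3 fell (17.65%, against 2.92% of all genes), 1 rose (5.88%, against 14.3%) and 13 did not pass, with a median of -0.10. With quantile normalization 5 were lower, and neither that nor median-of-ratios scaling left a member called higher. SOCS3, the feedback inhibitor of cytokine signalling through JAK and STAT, was at 1205 and 1144 TPM at 0 h, 1033 and 1059 at 0.5 h, 837 and 781 at 1 h, and 383 and 409 at 2 h. Its change over the first 0.5 h was -0.17 (adjusted p = 0.644), and it dropped by 1.03 on the log2 scale between 1 and 2 h (adjusted p = 1.59e-05), the smallest p of all genes in that step.

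Of 27 NF-kB feedback and inflammatory mRNAs with AU-rich elements 4 fell (14.8%, against 2.92% of all genes), 3 rose (11.1%, against 14.3%) and 20 did not pass, and the median was -0.018. With median-of-ratios scaling 6 fell and 2 rose, and with quantile normalization 6 fell and 1 rose. The chemokine CXCL2 went from 40.4 ± 7.27 to 25.3 ± 6.68 TPM (change -0.67) and ZC3H12A, an endonuclease that cuts inflammatory mRNAs, from 119 ± 14 to 85.9 ± 15.3 TPM (-0.47). SOD2, the mitochondrial superoxide dismutase that NF-kB induces, moved the other way, from 74.2 ± 10.4 to 124 ± 27.8 TPM (change 0.72, adjusted p = 1.91e-05).

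**Figure D2:**
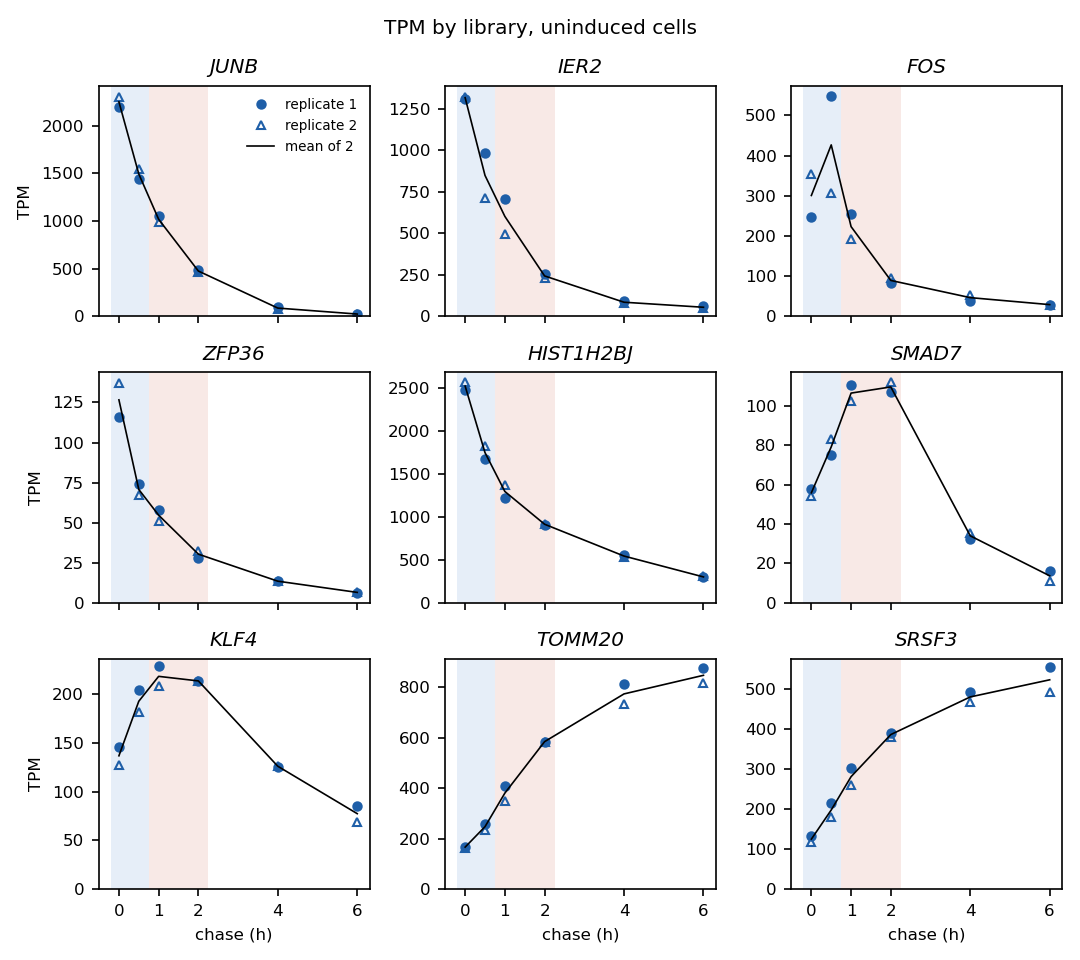
TPM (vertical axes, linear, from 0) of 9 genes in each uninduced library against hours of chase, with filled circles for replicate 1, open triangles for replicate 2 and a line through the mean of 2. The blue and red bands mark the 2 sides of the early comparison. The means of JUNB, IER2, ZFP36 and HIST1H2BJ were lower at each time from 0 h on, those of SMAD7 and KLF4 were highest at 1 or 2 h and lower at 4 and 6 h, and those of TOMM20 and SRSF3 were higher at each time to 2 h.

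The mRNAs of proteins that themselves control mRNA decay moved in both directions. ZFP36, which binds AU-rich elements and recruits CCR4-NOT, was at 116 and 137 TPM at 0 h, 74.2 and 67.2 at 0.5 h, 58.1 and 51.2 at 1 h, and 28 and 32.6 at 2 h. Its change was -1.20 (SE 0.0863, adjusted p = 4.45e-07, limma), and it was also called lower between 0 and 0.5 h. BTG2, an antiproliferative protein of the family of TOB2, was at 56.6 and 53.1 TPM at 0 h, 37.3 and 33.4 at 0.5 h, 29.8 and 28 at 1 h, and 15.9 and 18.7 at 2 h. It fell by 0.95 on the log2 scale (adjusted p = 0.000547), while its relatives BTG1 (13.3 to 18.6 TPM at 0 and 0.5 h and 21.2 to 24 at 1 and 2 h, change 0.43, adjusted p = 0.0314) and BTG3 (84.4 to 97.5 TPM at 0 and 0.5 h and 111 to 121 at 1 and 2 h, change 0.33, adjusted p = 0.0159) rose, and TOB1 was at 242 to 259 TPM at 0 and 0.5 h and 231 to 260.5 at 1 and 2 h (change -0.03, adjusted p = 0.904). The rises of BTG1 and BTG3 were not called with median-of-ratios scaling (adjusted p = 0.127 and 0.122) and passed in 1 and 5 of the 8 fits that left out 1 library. Of the 28 AU-rich element and 3-prime end regulators, ZFP36 and BTG2 were the 2 that fell (7.14%, against 2.92% of all genes), 9 rose (32.1%, against 14.3%) and 17 did not pass. The 9 included HNRNPD, or AUF1, an AU-rich element binding protein (0.49).

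Of the 52 members of the deadenylation, decapping and exonuclease machinery limma called none lower, and 0 were lower at an unadjusted p under 0.05, while 12 rose (23.1%, against 14.3% of all genes), with a median of 0.18. Among all genes at 20 to 100 TPM 23.9% rose, with a median change of 0.16, and the list was not matched for level. PATL1, a decapping activator, went from 25.2 ± 3.73 to 47.4 ± 14.5 TPM (change 0.85, adjusted p = 0.000476). CNOT7 and CNOT8, the alternative catalytic deadenylases of CCR4-NOT to which TOB proteins bind, went from 82.9 ± 9.35 to 123 ± 22.4 TPM (0.55) and from 49.4 ± 4.62 to 77.6 ± 12.5 TPM (0.63). The count of 12 was 8 with median-of-ratios scaling and with quantile normalization, and under the latter 2 members were called lower.

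Replication-dependent histone mRNAs were the list with the largest share of falls. They end in a stem-loop in place of a poly(A) tail, are made in S phase, and their processing and decay depend on the stem-loop binding protein. Of 61 measured, 50 fell (82%, against 2.92% of all genes), none rose by limma (0 at an unadjusted p under 0.05) and 11 did not pass. The median was -0.56, and for 47 genes all 4 values at 1 and 2 h lay below all 4 at 0 and 0.5 h (3.66% of all genes did so). HIST1H2BJ, an H2B gene, was at 2476 and 2569 TPM at 0 h, 1673 and 1822 at 0.5 h, 1223 and 1367 at 1 h, and 910.3 and 917 at 2 h. Each step was down, and the change was -0.95 (SE 0.0665, adjusted p = 3.6e-07, limma). HIST1H2AG, an H2A gene, went from 2345 ± 549 to 1191 ± 209 TPM (-0.96). HIST1H1B, a gene of the linker histone H1, went from 1056 ± 226 to 560.1 ± 112 TPM (-0.91).

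By histone type the median change was -0.85 over 3 H1 genes, -0.57 over 16 H2A genes, -0.59 over 18 H2B genes, -0.47 over 11 H3 genes and -0.50 over 13 H4 genes. The 11 uncalled genes had a median of 13 TPM, against 1590 TPM for the 50 called. Abundant exceptions were HIST1H2AD at 766 TPM (-0.36, adjusted p = 0.074), HIST1H2AB at 732 TPM (-0.26, adjusted p = 0.108), HIST1H3G at 969 TPM (-0.23, adjusted p = 0.187) and HIST3H2A at 536 TPM (-0.14, adjusted p = 0.423). These genes are near-identical copies, so reads may be split between them, and 6 of the 61 had values equal to those of another gene in every library, among them HIST2H2AA3. The sum over the list joins the copies, but it counted genes with identical values once. It also left out members under the filter (61 of 72 were kept), so it may still depend on that split. That sum made up 9.3% and 9.78% of all TPM at 0 h, 7.61% and 8.48% at 0.5 h, 6.28% and 6.75% at 1 h, and 5.17% and 5.27% at 2 h. Every library at 1 and 2 h held less histone mRNA than every library at 0 and 0.5 h, and no scaling tried turned the median of the list.

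**Figure D3:**
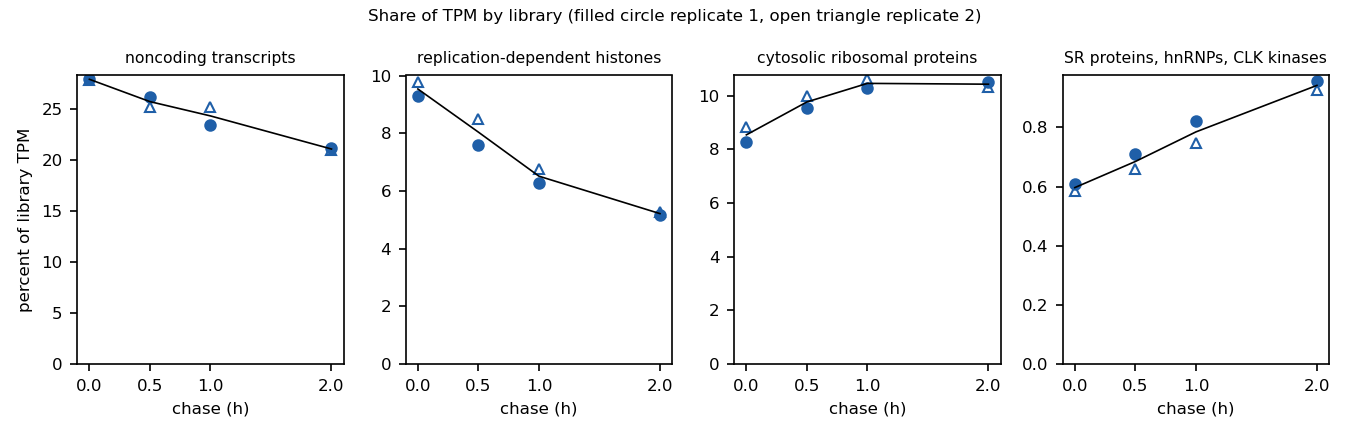
Percent of the library's TPM (vertical axes, linear, from 0) held by 4 groups of transcripts in the 8 uninduced libraries against hours of chase, with filled circles for replicate 1, open triangles for replicate 2 and a line through the mean of 2. The means of noncoding transcripts and histone mRNAs were lower at each time, the libraries at 1 h held 10.3% and 10.6% ribosomal protein mRNA, and the means of splicing factor mRNAs were higher at each time.

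The mRNAs of C2H2 zinc finger proteins with ZNF symbols, the largest family of human transcription factors and mostly repressors, changed in both directions. Of 392 measured, 63 fell (16.1%, against 2.92% of all genes), 20 rose (5.1%, against 14.3%) and 309 did not pass. ZNF138 was at 13.1 and 16.3 TPM at 0 h, 11.7 and 13.8 at 0.5 h, 8.85 and 9.04 at 1 h, and 3.21 and 4.99 at 2 h. Its sides did not overlap, and the change was -1.05 (adjusted p = 5.6e-05, limma). ZNF627 went from 39.1 ± 10.2 to 19.7 ± 5.66 TPM (-0.96), ZNF107 from 10.5 ± 2.03 to 5.68 ± 0.687 TPM (-0.77) and ZNF749 from 39.6 ± 5.22 to 23.6 ± 3.68 TPM (-0.72). Fitted by transcript, the best-expressed transcripts of ZNF627 and ZNF107 kept the direction but had adjusted p of 0.383 and 0.455. The median of the family was -0.070. With median-of-ratios scaling 106 fell and 16 rose, and with quantile normalization 103 fell and 12 rose.

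Other protein-coding falls of at least 2-fold included TMEM107, a protein of the ciliary transition zone, at 34.7 and 37.6 TPM at 0 h, 46.2 and 41.8 at 0.5 h, 28.1 and 31.4 at 1 h, and 12.3 and 11.6 at 2 h (change -1.03), ODF3B (4.99 to 11.5 TPM at 0 and 0.5 h and 2.42 to 4.57 at 1 and 2 h, change -1.08) and the receptor PILRB (8.64 to 11.7 TPM at 0 and 0.5 h and 3.26 to 5.59 at 1 and 2 h, change -1.07). TMEM107 was no lower at 0.5 h than at 0 h, and its lowest values were at 2 h. The sides of these 3 genes did not overlap. Fitted by transcript, the best-expressed transcript of TMEM107 kept the direction but was not called.

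Among the largest rises of protein-coding genes were TOMM20, TMED7, POMK and CASP2. TOMM20, a receptor of the mitochondrial outer membrane for imported proteins, was at 168 and 164 TPM at 0 h, 259 and 235 at 0.5 h, 409.8 and 351 at 1 h, and 584 and 585 at 2 h. The increase went on at every step, and the change was 1.21 (SE 0.0754, adjusted p = 7.64e-08, limma). TMED7, a cargo receptor of the early secretory pathway, was at 15.4 and 13.7 TPM at 0 h, 23.2 and 26.4 at 0.5 h, 41.4 and 37.5 at 1 h, and 58.6 and 60.8 at 2 h (change 1.31, SE 0.102, adjusted p = 1.16e-06). POMK, a kinase that modifies the sugar chains of dystroglycan, went from 47.6 ± 5.28 to 113 ± 39.5 TPM (change 1.16). CASP2, a caspase, stayed at 27.7 to 32.4 TPM to 0.5 h and reached 81.6 and 80.1 TPM at 2 h (change 0.92).

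Splicing factors were the list with the largest median rise. SRSF3, an SR protein that also serves mRNA export, was at 133 and 117 TPM at 0 h, 215 and 181 at 0.5 h, 303 and 260.1 at 1 h, and 392 and 382 at 2 h. All 4 later libraries were above the 4 earlier ones, with a change of 1.07 (SE 0.102, adjusted p = 1.23e-05, limma). THRAP3 and BCLAF1, related proteins with SR domains that act in splicing and export, went from 63.3 ± 15.4 to 148 ± 46.4 TPM (change 1.19) and from 56.6 ± 9.55 to 126 ± 39.6 TPM (1.10). SRRM1, a coactivator of splicing, went from 32.1 ± 4.99 to 60.7 ± 14.9 TPM (0.88), and SF3B1, a subunit of the U2 snRNP, from 70.1 ± 8.57 to 133 ± 37.5 TPM (0.88). Of 33 SR proteins, hnRNPs and CLK kinases 20 rose (60.6%, against 14.3% of all genes), 1 fell and 12 did not pass, with a median of 0.35. SRSF11 (0.71) and HNRNPR (0.57) were among the 20, and the 1 that fell was CLK1, a kinase of SR proteins (-0.33, adjusted p = 0.00164). Together they made up 0.61% and 0.583% of all TPM at 0 h and 0.957% and 0.927% at 2 h. With median-of-ratios scaling 16 rose and with quantile normalization 14.

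Several lists of growth machinery held many small rises. Their shares stand beside that of all genes and were not matched for level. Of genes at 20 to 100 TPM 23.9% rose, and of those at 100 TPM and over 39.7%. Of 57 translation initiation and elongation factors 27 rose (47.4%, against 14.3% of all genes) and none fell by limma (0 at an unadjusted p under 0.05), with a median of 0.27. EIF4B, a cofactor of the eIF4A helicase, was at 316 and 313 TPM at 0 h, 356 and 339 at 0.5 h, 482 and 413 at 1 h, and 798 and 779.7 at 2 h (change 0.84, adjusted p = 2.66e-05). Of 45 proteasome subunits and assembly factors 21 rose (46.7%) and 1 fell (2.22%, against 2.92% of all genes), with a median of 0.23. PSMC2, an ATPase of the regulatory particle, went from 63 ± 6.29 to 87.9 ± 7.47 TPM (0.48), and PSMB10, an inducible catalytic subunit, was the 1 that fell (-0.44, adjusted p = 0.0299), in only 1 of the 8 fits that left out 1 library. Of 80 subunits of the respiratory chain and ATP synthase 25 rose (31.25%) and none fell by limma (0 at an unadjusted p under 0.05; median 0.16), among them COX5A (79.2 ± 17.9 to 124 ± 10.2 TPM, change 0.67) and ATP5L (50.1 ± 7.27 to 78.9 ± 6.68 TPM, 0.65). Of 77 mitochondrial ribosomal proteins 21 rose (27.3%) and none fell by limma (2 at an unadjusted p under 0.05; median 0.18), with MRPL1 going from 19.4 ± 5.93 to 33.8 ± 2.95 TPM (0.82).

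These counts changed with the scaling. With quantile normalization 18 translation factors, 6 proteasome, 9 respiratory chain and 8 mitochondrial ribosomal genes rose, and 1, 2, 3 and 5 fell. Over all 13416 genes 1201 rose and 870 fell with that scaling. The shares of respiratory chain and mitochondrial ribosomal genes that rose were then near that of all genes. With median-of-ratios scaling 19, 13, 12 and 11 rose, against 1371 of all 13416 genes.

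Of 77 cytosolic ribosomal proteins 25 rose (32.5%, against 14.3% of all genes) and 1 fell (1.3%, against 2.92%), with a median of 0.18. The members named next were far above 100 TPM. Among all genes at 100 TPM and over 39.7% rose, with a median change of 0.19, so the list did not exceed abundant genes in either value. RPL4 was at 1477 and 1650.0 TPM at 0 h, 1862 and 1918 at 0.5 h, 2248 and 2239 at 1 h, and 2586 and 2767 at 2 h (change 0.51, adjusted p = 0.00015, limma). RPL5, which with RPL11 and the 5S RNA also restrains MDM2, went from 1199 ± 147 to 1642 ± 171 TPM (0.46). The exception was RPL10A, at 939.8 and 893 TPM at 0 h, 868 and 896 at 0.5 h, 869.6 and 803 at 1 h, and 550.5 and 535 at 2 h. Both libraries at 2 h were below every other of the 8 (change -0.42, adjusted p = 0.000497). Ribosomal protein mRNAs made up 8.26% and 8.82% of all TPM at 0 h, 9.53% and 9.99% at 0.5 h, 10.3% and 10.6% at 1 h, and 10.5% and 10.3% at 2 h. At 4 h they held 11.6% and 11.7%, and at 6 h 13.7% and 14.5%. The count of 25 was 6 with median-of-ratios scaling and 29 with quantile normalization. Over all 13416 genes these scalings called 1371 and 1201 higher, so with the first the list's share was below that of all genes. Of 18 glycolytic enzymes 8 rose (44.4%) and 1 fell (5.56%), with a median of 0.29. GAPDH went from 3476 ± 332 to 4598 ± 496 TPM (0.40), HK2, a hexokinase, from 36.8 ± 3.63 to 59.7 ± 13.7 TPM (0.66), and PFKFB4, which sets the level of an activator of glycolysis, was the 1 that fell (-0.50, adjusted p = 0.0217), in 3 of the 8 fits that left out 1 library.

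In the other cell cycle lists limma called rises and no fall, and 0 genes were lower at an unadjusted p under 0.05. Of 19 cyclins 10 rose (52.6%), of 32 mitotic kinases and spindle genes 14 (43.8%) and of 35 replication licensing and fork genes 10 (28.6%), against 14.3% of all genes. Among all genes at 20 to 100 TPM 23.9% rose. CCNB2, a mitotic cyclin, was at 16.9 and 18.2 TPM at 0 h, 27.9 and 20.9 at 0.5 h, 30.8 and 30.7 at 1 h, and 41.9 and 51.4 at 2 h (change 0.85, adjusted p = 4.6e-05, limma). CDK1, its partner kinase, went from 77 ± 5.59 to 127 ± 27.9 TPM (0.69), TPX2, a spindle assembly factor, from 50.5 ± 1.95 to 74 ± 17.3 TPM (0.51) and BUB3, a checkpoint protein, from 157 ± 17.7 to 238 ± 44.8 TPM (0.58). Among replication genes GMNN, the inhibitor of origin relicensing, went from 138 ± 9.73 to 206 ± 21.1 TPM (0.57) and RRM1, a subunit of ribonucleotide reductase, from 70.7 ± 2.7 to 110.1 ± 28.7 TPM (0.59). The cyclin count fell to 6 with median-of-ratios scaling and to 2 with quantile normalization, under which 1 cyclin was called lower. Over all 13416 genes these scalings called 1371 and 1201 higher, so 2 of 19 cyclins was near the share of all genes. The mitotic count fell to 9 and 8, with 2 called lower under each scaling.

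**Figure D4:**
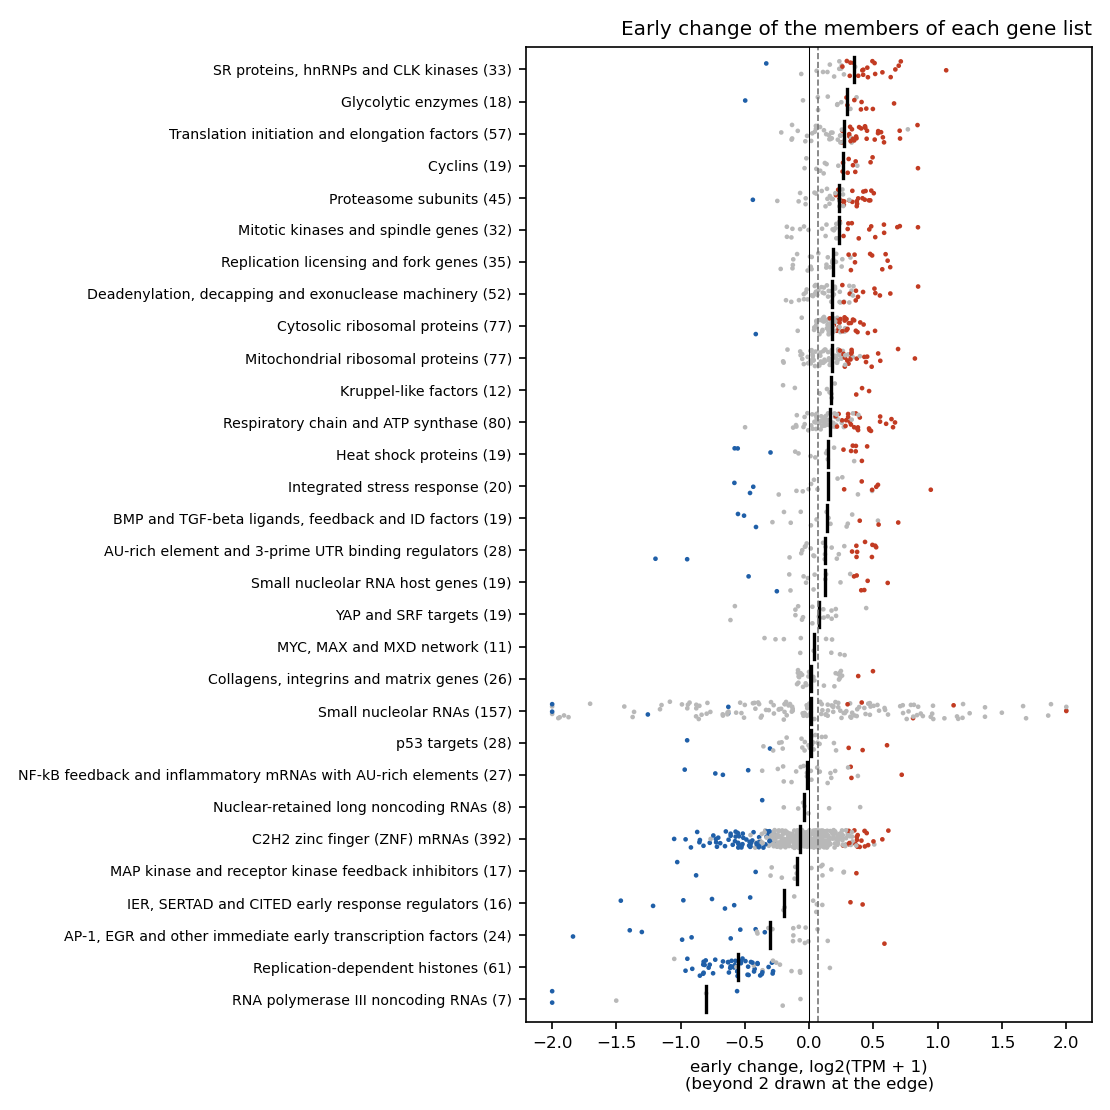
Early chase change (horizontal axis, log2 of TPM + 1, mean of 1 and 2 h minus mean of 0 and 0.5 h) of each measured member of 30 gene lists, with red for members called higher, blue for those called lower, grey for uncalled and a black bar at the list's median. The number measured stands in parentheses, and the dashed line is the median of all genes, 0.067. Histones lie almost wholly to the left, splicing factors mostly to the right, and the zinc finger and small nucleolar RNA lists on both sides.

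Stress and signalling lists held both directions. Of 19 heat shock protein genes 7 rose (36.8%, against 14.3% of all genes) and 3 fell (15.8%, against 2.92%), with a median of 0.14. With median-of-ratios scaling 4 rose and 3 fell, and with quantile normalization 3 rose and 3 fell. HSP90AB1, the constitutive HSP90, went from 1144 ± 67.7 to 1524 ± 159 TPM (0.41), while the stress-induced HSP70 genes HSPA1A (-0.56, adjusted p = 0.0156) and HSPA1B (-0.58, adjusted p = 0.0196), a near-identical pair, and the cochaperone DNAJB1 (-0.30) fell. HSPA1A passed in 5 and HSPA1B in 4 of the 8 fits that left out 1 library. Of 20 integrated stress response genes 6 rose (30%) and 3 fell (15%), and with the same scalings 5 and 4 rose. PHGDH, the first enzyme of serine synthesis, was at 147 and 89.5 TPM at 0 h, 169.6 and 126 at 0.5 h, 242 and 159.5 at 1 h, and 353 and 288 at 2 h (change 0.95, adjusted p = 0.00224). Replicate 1 of PHGDH was above replicate 2 at each of these times, and the sides overlapped. Of 19 BMP and TGF-beta feedback and ID genes 3 rose and 3 fell, or 15.8% each, against 14.3% and 2.92% of all genes, so the share of rises was near that of all genes. The inhibitory SMADs parted, with SMAD7 at 57.6 and 54 TPM at 0 h, 75 and 83.2 at 0.5 h, 110.3 and 102 at 1 h, and 107 and 112 at 2 h (change 0.69, adjusted p = 0.00167) and SMAD6 at 106 and 95.5 TPM at 0 h, 78.4 and 84.6 at 0.5 h, 75.7 and 65.7 at 1 h, and 58.9 and 55.2 at 2 h (change -0.51, adjusted p = 0.000124). SMAD7 was higher at each time to 1 h, and SMAD6 was lower at each time than at the one before.

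Of 12 Kruppel-like factors 3 rose (25%, against 14.3% of all genes) and none fell by limma (0 at an unadjusted p under 0.05), with a median of 0.17 (-0.016 with quantile normalization, where 1 rose and 1 fell). They were KLF11 (0.47), KLF4 (0.41) and KLF5 (0.37), and KLF4 and KLF5 were no longer called with quantile normalization (0.21, adjusted p = 0.116, and 0.15, adjusted p = 0.142). KLF4 also missed the threshold without replicate 2 at 0.5 h (adjusted p = 0.0514). Of 26 collagen, integrin and matrix genes 2 rose (7.69%), ITGB1 (0.50) and PLOD2 (0.38), and the median was 0.015 (-0.075 with median-of-ratios scaling). Of 28 p53 targets 3 rose (10.7%, against 14.3% of all genes) and 2 fell (7.14%, against 2.92%), BTG2 being the larger fall, and ZMAT3, which binds RNA, the larger rise (0.61). In the MYC, MAX and MXD network (11 genes) and among YAP and SRF targets (19 genes) limma called no gene in either direction. At an unadjusted p under 0.05, 2 of the 11 were higher and none lower, and of the 19, 2 were higher and 2 lower.

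Noncoding RNAs lost share, most of it in 3 genes. Transcripts with noncoding RefSeq records made up 26.8% ± 1.32 (SD, n = 4) of all TPM at 0 and 0.5 h and 22.7% ± 2 (SD, n = 4) at 1 and 2 h. The sides did not overlap, with 25.2% to 27.9% against 21% to 25.1%, and p was 0.0286 in a two-sided exact permutation test, the smallest that the 70 splits of 4 against 4 allow. RMRP, MIR6723 and RPPH1 together went from 20.9% ± 1.68 to 17% ± 1.82 of all TPM (SD, n = 4 on each side), with overlap between the sides. All other noncoding transcripts together went from 5.86% ± 0.52 to 5.68% ± 0.252, also with overlap, and small nucleolar RNAs held 1.11% ± 0.209 and 1.14% ± 0.151. RMRP, the RNA of RNase MRP, was with MIR6723 and RPPH1 among the 3 most abundant genes. It was at 101308 and 108771 TPM at 0 h, 82948 and 83526 at 0.5 h, 78138 and 84414 at 1 h, and 50301 and 48533 at 2 h, and changed by -0.56 (adjusted p = 0.00707, limma). With quantile normalization its change was -0.13 (adjusted p = 0.798).

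The largest fall of all was in SNAR-A1, a small RNA of a primate-specific repeated family transcribed by RNA polymerase III. It was at 247 and 329 TPM at 0 h, 51.8 and 242 at 0.5 h, 0 and 0 at 1 h, and 7.2 and 0 at 2 h. SNAR-A1 was thus listed at 0 in 3 of the 4 later libraries, its replicates at 0.5 h were far apart, and its values were identical to those of SNAR-A2, so the copies cannot be told apart. MIR6077, listed as a microRNA gene, was at 121 and 75.9 TPM at 0 h, 47.3 and 37.5 at 0.5 h, 21.3 and 20.7 at 1 h, and 0 and 0 at 2 h, so it was listed at 0 in both libraries at 2 h. The long noncoding RNA LINC00324 went from 12.8 ± 5.58 to 5.58 ± 0.944 TPM (-0.99, adjusted p = 0.000165). JPX, a long noncoding RNA known from X inactivation, went the other way, at 6.36 and 4.66 TPM at 0 h, 13.6 and 11.8 at 0.5 h, 15.4 and 16.6 at 1 h, and 19.2 and 18.5 at 2 h. JPX was called higher between 0 and 0.5 h (1.08, adjusted p = 0.00901).

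Of 19 small nucleolar RNA host genes 6 rose (31.6%, against 14.3% of all genes) and 2 fell (10.5%, against 2.92%), with a median of 0.12 (-0.045 with quantile normalization, where 2 rose and 3 fell). SNHG16 went from 754 ± 106 to 1149 ± 139 TPM (0.61, adjusted p = 1.03e-05) and SNHG1 from 1111 ± 59.4 to 1472 ± 98.2 TPM (0.40). SNHG12 was at 202 and 165 TPM at 0 h, 219.7 and 184 at 0.5 h, 186 and 176 at 1 h, and 108 and 103 at 2 h. Its values at 2 h were below the other 6 (change -0.47, adjusted p = 0.00327). Of 157 small nucleolar RNAs 5 rose and 5 fell, or 3.18% each, against 14.3% and 2.92% of all genes. With median-of-ratios scaling 3 rose and 5 fell, and with quantile normalization 2 rose and 7 fell. One of the 5 that rose was SNORA71A, at 122 to 343 TPM at 0 and 0.5 h and 344 to 508 at 1 and 2 h (change 1.12). Of 8 nuclear-retained long noncoding RNAs 1 fell (12.5%), NEAT1, the scaffold of paraspeckles (-0.37, adjusted p = 0.0394), which passed in 2 of the 8 fits that left out 1 library.

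Few genes were called in the steps of the first hour. Between 0 and 0.5 h, 1 gene was called higher (0.00745%) and 2 lower (0.0149%), although 1062 (7.92%) had an unadjusted p under 0.05. With the replicate number as a block 14 were higher and 7 lower, and with quantile normalization 2 higher and 1 lower. The gene called higher without the block was JPX, and the 2 called lower were ZFP36 (-0.83, adjusted p = 0.025, limma) and the histone HIST4H4 (-0.68, adjusted p = 0.029). Between 0.5 and 1 h no gene was called higher by limma (0%) and 2 lower (0.0149%), the identical SNAR-A1 and SNAR-A2, with 666 genes (4.96%) at an unadjusted p under 0.05. Between 1 and 2 h, 253 genes were called higher (1.89%) and 73 lower (0.544%). The last step covers 1 h and the others 0.5 h each, and each rests on 2 libraries against 2. Leaving out 1 library in turn left between 2 and 192 genes higher and between 2 and 66 lower in the last step. Without replicate 1 or 2 at 1 h 43 and 5 were higher and 14 and 7 lower, and without replicate 1 or 2 at 2 h 2 and 9 were higher and 2 and 9 lower. Without the 2 h libraries, the comparison of 1 h with 0 and 0.5 h, chosen after the data were seen, called 125 genes higher and 43 lower.

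Medians over the lists are given for the 3 steps in order. Histones had median steps of -0.19, -0.29 and -0.33, each below 0. Immediate early transcription factors had -0.19, -0.07 and -0.10 at the median, but JUNB went by -0.59, -0.55 and -1.10, IER2 by -0.65, -0.50 and -1.28, and DUSP1 by -0.29, -0.37 and -1.03. Cytosolic ribosomal protein mRNAs had median steps of 0.17, 0.10 and -0.009, and splicing factors 0.16, 0.15 and 0.22. All genes had 0.081, 0.006 and 0.063.

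What followed the early change was read from the libraries at 4 and 6 h against those at 1 and 2 h, which share the 1 and 2 h libraries with the early comparison, so the values stand side by side only. In that later comparison 4874 genes rose (36.3%) and 2460 fell (18.3%), and with median-of-ratios scaling 3494 rose and 3557 fell. The counts that follow are with TPM as deposited. Of the 392 genes that fell early, 281 fell later, 8 rose and 103 were not called. JUNB changed by a further -3.89 and reached 24.1 and 24.3 TPM at 6 h, IER5 reached 7.15 and 6.94 TPM (-3.70) and HIST1H2BJ 294 and 306 TPM (-1.43). Of the 1922 that rose early, 1433 rose later, 145 fell and 344 were not called. TOMM20 reached 877 and 817 TPM at 6 h and SRSF3 555 and 493 TPM.

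The 145 genes that rose early and then fell were 7.54% of those that rose, while 18.3% of all genes fell in the later comparison. For 116 of them the sides did not overlap early on, as for 1301 of all 1922 that rose. The median changes of the 145 were 0.37 early and -0.49 later. SMAD7 had its highest values at 1 and 2 h and was at 32.4 and 35.5 at 4 h and 16.1 and 11.2 TPM at 6 h (later change -2.28, adjusted p = 9.71e-10, limma). TXNIP, a redox and glucose sensor, was at 25.8 and 21.4 TPM at 0 h, 39.1 and 32.6 at 0.5 h, 57.1 and 51.2 at 1 h, and 51.5 and 46 at 2 h, then at 18.3 and 14.2 at 4 h and 8.69 and 6.17 TPM at 6 h (early 0.80, later -2.13). KLF4, a transcription factor of the Kruppel-like family, was at 146 and 128 TPM at 0 h, 204 and 181 at 0.5 h, 228 and 208 at 1 h, and 214 and 213 at 2 h, then at 126 and 126 at 4 h and 85.7 and 69 TPM at 6 h (0.41 and -1.12). KLF5 (0.37 and -1.27), KLF11 (0.47 and -0.92), ETS2 (0.59 and -0.59), GADD45A (0.42 and -1.07), PPP1R15B (0.41 and -0.41) and the cyclin CCNL1 (0.26 and -0.85) were also higher early and lower later. All 3 Kruppel-like factors that rose early were among the 145, but 9 of the 12 measured members of that list were called lower later. The early call of CCNL1 was lost with median-of-ratios scaling (0.16, adjusted p = 0.202) and that of GADD45A with quantile normalization (0.22, adjusted p = 0.0689).

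The same contrast in induced cells used 8 other libraries. There 2585 genes rose (19.3%) and 502 fell (3.74%). The first count was 1457 without induced replicate 2 at 0 h, 1529 without replicate 2 at 0.5 h, 1484 without replicate 1 at 1 h and 1631 without replicate 1 at 2 h. Of the 1922 genes that rose in uninduced cells 1658 rose in induced cells, which is 86.3% of the first list and 64.1% of the second. Of the 392 that fell 273 fell in induced cells, 69.6% and 54.4% of the lists. No gene was called in opposite directions, and the sign was the same for 1919 of the 1922 and 387 of the 392. JUNB changed by -1.48 in induced cells, EGR1 by -2.32, ZFP36 by -1.32, SOCS3 by -0.97, TOMM20 by 1.11 and SRSF3 by 0.98, beside -1.40, -1.84, -1.20, -0.97, 1.21 and 1.07 in uninduced cells.

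**Figure D5:**
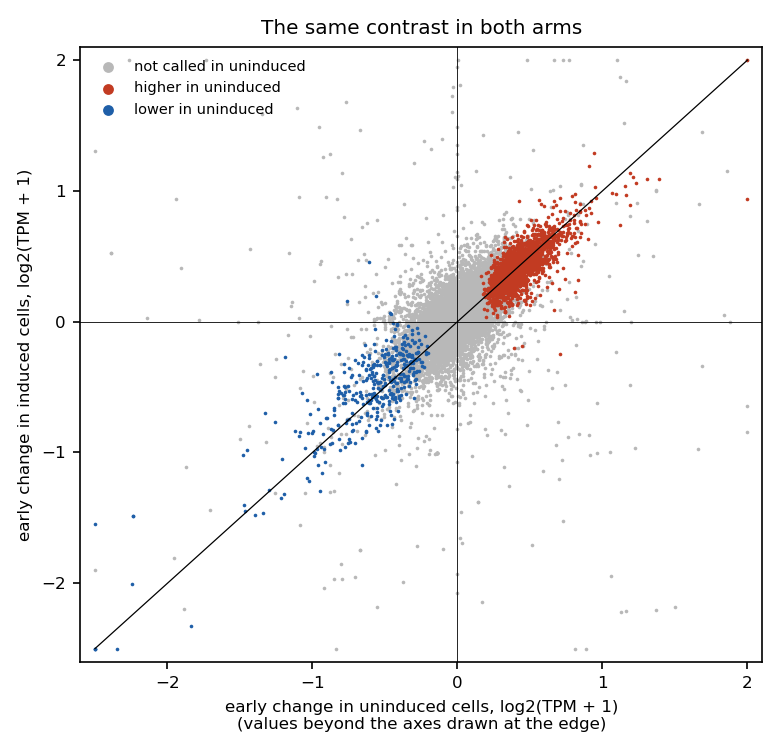
Early chase change in induced cells (vertical axis) against that in uninduced cells (horizontal axis), both in log2 of TPM + 1, for the 13416 genes tested, coloured by their call in uninduced cells, with the line of equal change. The called genes lie along the line, 1919 of 1922 red and 387 of 392 blue points have the same sign in both arms, and no gene passed the test of the difference.

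The difference of the early change between the arms was tested directly. By limma no gene passed in either direction (0%), and 260 (1.94%) had an unadjusted p under 0.05. That is a smaller share than the threshold itself would give with no difference in any gene. The 95% interval of the difference reached, at the median, 0.271 to either side on the log2 scale for genes that rose and 0.35 for those that fell. In simulated data with 200 genes changed in the uninduced early contrast, over 13416 genes, the test of the arm difference found 74 of 100 differences of 1 on the log2 scale and 11 of 100 of 0.5. The histone list had a median early change of -0.56 in uninduced and -0.35 in induced cells, with a median difference of -0.22 against -0.031 for all genes, and 19 of 61 members had an unadjusted p under 0.05, none of which passed adjustment. The share of TPM held by histone mRNA at 0 h was 9.3% and 9.78% in uninduced and 7.68% and 7.05% in induced cells. TOB2 changed by -0.02 in uninduced and 0.20 in induced cells.

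Between 12991 and 13682 genes reached 1 TPM in these 8 libraries, and the 2 libraries of each time had a Pearson's r of 0.979 to 0.985 across genes, as a description, since genes are not replicates. When the 8 libraries were treated as 2 groups of 4, which counts the change within each side as error, 417 genes rose and 88 fell. JUNB, HIST1H2BJ, TOMM20, TMED7 and SRSF3 were still called, and EGR1, IER2, FOS, ZFP36, DUSP1 and SOCS3 were not, with adjusted p between 0.0528 and 0.073. Leaving out each of the 8 libraries in turn left 1177 to 1702 genes higher and 249 to 351 lower. The 1177 came without replicate 1 at 1 h, and the count of genes that fell was 249 without replicate 1 at 0.5 h and 258 without replicate 1 at 2 h. Of the markers of bone and mesenchyme 6 of 10 were kept, summing to 943 to 1025 TPM at 0 and 0.5 h and 1008 to 1068 TPM at 1 and 2 h, while COL1A2 and IBSP were at 0. Most of the sum was VIM (392 to 591 TPM), S100A6 (271 to 384) and LGALS1 (167 to 184). RUNX2 (3.14 to 5.03 TPM) and BGLAP (0 to 4.78) were low, and SPARC and ALPL reached at most 0.21 and 0.08 TPM. Of 8 epithelial markers 1 was kept (sums of 1.1 to 2.13 TPM), and of 8 leukocyte markers 3 (28.5 to 52.5 TPM). LYZ made up most of the leukocyte sum (19.8 to 42.5 TPM), and CD3E and MS4A1 were at 0. Of the 10 markers kept limma called none, while 1 was higher at an unadjusted p under 0.05.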

How the data were processed

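The 24 libraries were human U2OS RNA-seq libraries of bromouridine-marked cytoplasmic RNA. The deposited values are TPM per transcript in 1 table, made by the authors, with Trim Galore, Bowtie2, RSEM 1.3.0 and build hg19 named in the submitters' processing notes, which give no order or settings. Groups, times and replicate numbers came from the labels. Values of the 48009 transcripts were summed by gene symbol, leaving out 3 without one; 48 of the genes kept had values identical to another gene, and 17 genes whose names had turned into dates are not named. Limma 3.58.1 (R 4.3.3) was fitted with a mean-variance trend to log2(TPM + 1) with 12 group means over 24 libraries (12 residual degrees of freedom), and each contrast was adjusted over 13416 genes by Benjamini and Hochberg at 0.05. A fold change on this scale understates that of a scarce gene. TPM gives no depth. In simulated data with 200 genes changed in the uninduced early contrast, over 13416 genes, 88% of log2 changes of 1 and 35% of 0.5 were recovered. In the real contrast 2314 genes were called, and the adjusted threshold depends on how many genes change, so these rates need not hold for it. Promoters came from RefSeq (GRCh38.p14), which matched 9670 of 11706 protein-coding genes.

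The members and gene lists were chosen with earlier results of these data known. Named genes were TOB2, the 14 largest falls and rises among protein-coding genes of at least 5 TPM whose sides did not overlap, 5 each of noncoding genes, the 4 members of each list with the smallest p and the 5 largest per step; not all are printed, and 1 list member is not reported here. BTG1, BTG3, CLK1, DNAJB1, FOS, 5 histone genes (HIST1H1B, HIST1H2AB, HIST1H2AD, HIST1H3G and HIST3H2A), HSPA1A, HSPA1B, IER5, MCL1, PFKFB4, PSMB10, SERTAD2, SF3B1, TFRC, TMEM33, TOB1, TXNIP and VMA21 were chosen after their values were seen. Alternatives changed the pseudocount, filter, scaling, features, variance model, libraries, contrast and block. Gene length was not analysed here, since the table of genes is on another build.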

Additional observations from a re-analysis of the deposited data

How the results depend on the processing

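Of the 1922 rises and 392 falls, quantile normalization gave 1201 and 870, median-of-ratios scaling 1371 and 917, protein-coding transcripts alone 1463 and 616, and leaving RMRP, MIR6723 and RPPH1 out 1549 and 662. The 8 libraries as 2 groups of 4 gave 417 and 88, and 1 h against 0 and 0.5 h gave 125 and 43; this setting and the one without the 3 noncoding RNAs were chosen after seeing the data. Leaving out 1 library gave 1177 to 1702 rises and 249 to 351 falls. For the first step (0 to 0.5 h) quantile normalization gave 2 higher and 1 lower, median-of-ratios scaling 0 lower, and leaving out 1 library 0 to 3 higher and 0 to 2 lower. For the second step (0.5 to 1 h) the scalings gave 2 and 1 higher, the latter with 0 lower, and leaving out 1 library 0 higher and 0 to 3 lower. For the third step (1 to 2 h) the scalings gave 182 and 155 lower, and leaving out 1 library 2 to 192 higher and 2 to 66 lower. The arm difference had 2 genes lower without a filter, and 0 to 1 higher and 0 to 1 lower over 16 fits that left out 1 library. In induced cells quantile normalization gave 1407 and 1165, median-of-ratios scaling 1404 and 1155, and leaving out 1 library 1457 to 3114 rises and 346 to 450 falls. The noncoding share changed by -4.94 to -3.55 percentage points without 1 library. The cause of these shifts was not tested.

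With the replicate number as a block, the early change had 2659 rises and 579 falls, the first step 14 higher and 7 lower, the second 1 higher and the third 799 and 174; no call of a named gene ended. Replicate differences correlated at 0.11 to 0.17 between the 4 uninduced times (6 pairs) and at -0.036 to 0.25 over all 66 pairs of groups, and the labels do not say that a number marks a shared culture.

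List medians that changed sign were, with quantile normalization, BMP and TGF-beta genes (-0.034), Kruppel-like factors (-0.016), small nucleolar RNA host genes (-0.045) and small nucleolar RNAs (-0.105). With median-of-ratios scaling they were matrix genes (-0.075) and small nucleolar RNAs (-0.0025), without the 3 noncoding RNAs matrix genes (-0.051) and small nucleolar RNAs (0), and with protein-coding transcripts alone matrix genes (-0.025). TOB2 was at 0.01, 0.0023, 0.04996 and 0.019 without replicate 1 at 0 h, replicate 1 at 0.5 h, replicate 2 at 1 h and replicate 2 at 2 h, and -0.090 without replicate 1 at 1 h, against -0.020 with all libraries, and NEAT1 was at 0.13 in the comparison of 1 h with 0 and 0.5 h. Of 97 named genes called, 0 lost the call with a pseudocount of 0.1 or 5, 4 with no filter, 4 with median-of-ratios scaling, 8 with quantile normalization, 20 when the best-expressed transcript stood for the gene, 57 with 2 groups of 4 and 58 in the comparison of 1 h. Leaving out a library ended calls of BTG1 (highest adjusted p = 0.112, limma), BTG3 (0.0653), HSPA1A (0.0654), HSPA1B (0.0755), KLF4 (0.0514), NEAT1 (0.194), PFKFB4 (0.106), PSMB10 (0.164) and SERTAD2 (0.112). The check of gene length was not run. TPM gives no depth, so precision is known only from the spread between libraries.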

Other observations

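Outside the lists, VMA21, TFRC and TMEM33 were picked, after their values were seen, for a small p in the early comparison or in its last step. VMA21, an assembly factor of the vacuolar proton pump, was at 49.5 and 48.5 TPM at 0 h, 58.3 and 57 at 0.5 h, 84.6 and 76.7 at 1 h, and 109 and 121 at 2 h (change 0.84, SE 0.0731, adjusted p = 4.91e-06, limma). All 4 values at 1 and 2 h were above those at 0 and 0.5 h. TFRC, the transferrin receptor, whose mRNA is known to be stabilised when iron is low, was at 126 and 119.7 TPM at 0 h, 141 and 129 at 0.5 h, 145 and 137 at 1 h, and 250.4 and 264 at 2 h. Its steps were 0.13, 0.06 and 0.86, with an adjusted p of 0.000423 for the last. TMEM33, a membrane protein of the endoplasmic reticulum, was at 15.9 and 14.2 TPM at 0 h, 17.2 and 17.4 at 0.5 h, 19.1 and 19.2 at 1 h, and 32.9 and 38.2 at 2 h, with steps of 0.19, 0.14 and 0.85 (adjusted p = 0.000423 for the last). For TFRC and TMEM33 the highest values of the 8 libraries were the 2 at 2 h. In induced cells the early changes were 0.77 for VMA21, 0.50 for TFRC and 0.67 for TMEM33, beside 0.84, 0.56 and 0.66 in uninduced cells.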
